A study of Homo sapiens with 5 samples.

Results

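Transcripts of 50 genes of the mitotic spindle and its checkpoint were examined in TE7 cells, a human esophageal carcinoma cell line, made to express CDH26. CDH26 encodes a member of the cadherin family of calcium-dependent adhesion proteins. The genes were taken from a list of kinases, cyclins, kinesins, kinetochore and spindle proteins, and each was looked up by symbol among the 14812 genes named for the array. Of the 50, 42 had a named probe set, 1 each, and all 42 are described. CENPE, CENPF, NUF2, SPC25, SPC24, ASPM, TPX2 and DLGAP5 had none in the annotation and are not analysed here.

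The series held 5 clones. In 3 of them TE7 cells carried the expression construct pMIRNA1-puro-CDH26, and in the other 2 they carried pMIRNA1-puro-control. Each clone was derived from a single transduced cell, grown until confluent and then kept for 24 h in RPMI medium with 1.8 mM calcium, so every clone of both groups shared the vector backbone, confluence and calcium. Each clone's RNA was measured once, on an Affymetrix Gene 2.0 ST array. The 3 CDH26 clones differ in the cell they came from as well as carrying the construct, and so do the 2 control clones.

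Each deposited value is a logarithm, taken here as log2, from which the average of the 2 control clones has been subtracted. They give differences between clones and no level, so neither the abundance of a gene nor the labelled cell type can be read from them, and genes cannot be ranked by level. With 5 arrays the precision is limited throughout. Array medians were 0 in each clone, and CDH26 itself, the check of the labels, was at 2.87, 3.01 and 2.63 in the CDH26 clones, against 0.01 and −0.01 in the control clones. Its difference was 2.84 ± 0.13 (SE; limma, adjusted p = 0.25). Ties between arrays, which the deposited values hold exactly, occurred in 14 of the 42 mitotic genes (33.3%) and in 53.7% of all genes. The clones of a group are always given in the order of their numbers.

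Before anaphase, kinetochores that are not attached to microtubules recruit checkpoint proteins, which hold back CDC20 and with it the anaphase-promoting complex (APC/C). Once every chromosome is attached, the APC/C marks securin and cyclin B for destruction, separase opens cohesin and the sister chromatids part. Transcripts of many of these proteins are made mainly in G2 and mitosis, and their summed level in a culture is widely used as a sign of proliferation. In RNA from whole cultures, fewer cells in mitosis and less RNA per mitotic cell cannot be told apart.

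Transcription of this class of genes is known to depend on 2 short promoter elements, the cell cycle genes homology region (CHR), bound by the MuvB complexes, and the CCAAT box, bound by NF-Y. RefSeq promoters of GRCh38.p14, each with 250 bases before and 50 after a transcription start, were found for 36 of the 42 genes. The CHR was searched as TTTGAA and the CCAAT box as CCAAT, on both strands. No other spelling of either element was searched. A CHR was present for 24 of the 36 mitotic genes (66.7%) and for 1643 of the 10736 tested genes with a promoter (15.3%), and over all 35116 promoters of that length its share was 15.2%. A CCAAT box was present for 31 of the 36 (86.1%) and for 41.4% of the tested genes, with a share of 34.6% over all promoters. Both elements together occurred for 22 mitotic genes (61.1%) and 6.38% of the tested genes, against 5.9% of all promoters.

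The promoters of 6 of the genes are printed to show this element layout, 3 of the genes with a higher mean in CDH26 clones (BUB1, CDCA8, KIF2C) and 3 with a lower mean (MKI67, CDK1, MAD1L1), in each direction those of smallest unadjusted p that have a promoter in the table. Sequences run 5′ to 3′ along the gene, with CHR and CCAAT letters in capitals on whichever strand they were found; neighbouring or overlapping matches form a single run of capitals. For CDK1 the table lists 2 starts, and the promoter of lower coordinate is shown. The elements of the other CDK1 promoter are not shown.
BUB1, chr2:110678014-110678313, minus strand: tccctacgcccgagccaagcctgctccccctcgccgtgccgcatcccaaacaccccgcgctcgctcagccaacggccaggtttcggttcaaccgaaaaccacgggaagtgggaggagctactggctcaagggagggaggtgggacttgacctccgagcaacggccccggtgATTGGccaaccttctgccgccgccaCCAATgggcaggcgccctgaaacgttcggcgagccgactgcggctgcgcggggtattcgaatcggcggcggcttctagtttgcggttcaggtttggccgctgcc
CDCA8, chr1:37692266-37692565, plus strand: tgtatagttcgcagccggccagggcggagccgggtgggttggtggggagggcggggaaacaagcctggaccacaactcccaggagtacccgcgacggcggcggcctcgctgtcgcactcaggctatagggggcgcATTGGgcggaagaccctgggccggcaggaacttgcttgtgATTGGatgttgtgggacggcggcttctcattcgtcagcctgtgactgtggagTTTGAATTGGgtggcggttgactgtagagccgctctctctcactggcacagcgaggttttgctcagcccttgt
KIF2C, chr1:44739587-44739886, plus strand: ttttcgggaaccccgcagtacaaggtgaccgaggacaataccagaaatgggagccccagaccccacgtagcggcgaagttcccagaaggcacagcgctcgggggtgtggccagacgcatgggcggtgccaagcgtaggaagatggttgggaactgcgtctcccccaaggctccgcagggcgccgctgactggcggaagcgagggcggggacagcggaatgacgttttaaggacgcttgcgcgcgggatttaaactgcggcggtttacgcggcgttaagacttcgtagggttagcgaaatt
MKI67, chr10:128126374-128126673, minus strand: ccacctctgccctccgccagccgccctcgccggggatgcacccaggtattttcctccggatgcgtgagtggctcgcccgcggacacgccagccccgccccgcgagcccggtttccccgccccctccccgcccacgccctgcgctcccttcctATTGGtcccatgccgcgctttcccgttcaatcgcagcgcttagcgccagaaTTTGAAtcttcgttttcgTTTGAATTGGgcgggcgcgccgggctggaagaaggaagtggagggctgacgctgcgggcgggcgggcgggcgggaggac
CDK1, chr10:60778081-60778380, plus strand: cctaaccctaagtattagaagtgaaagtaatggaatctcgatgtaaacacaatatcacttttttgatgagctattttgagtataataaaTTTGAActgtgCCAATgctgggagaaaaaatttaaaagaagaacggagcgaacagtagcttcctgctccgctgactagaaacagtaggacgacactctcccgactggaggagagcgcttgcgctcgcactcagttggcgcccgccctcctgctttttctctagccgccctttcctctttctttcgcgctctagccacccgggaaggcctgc
MAD1L1, chr7:2232896-2233195, minus strand: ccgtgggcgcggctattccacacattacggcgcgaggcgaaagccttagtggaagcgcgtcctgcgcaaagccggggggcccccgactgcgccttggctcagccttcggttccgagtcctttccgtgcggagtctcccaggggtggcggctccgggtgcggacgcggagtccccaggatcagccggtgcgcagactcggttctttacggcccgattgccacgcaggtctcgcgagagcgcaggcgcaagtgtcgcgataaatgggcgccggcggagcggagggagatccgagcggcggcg

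BUB1 held a CCAAT box on each strand, 79 and 54 bases before the start, and no TTTGAA in this window. CDCA8 and MKI67 each held a TTTGAA whose last base is the start of ATTGG, the CCAAT box read on the other strand. No match was found for KIF2C or MAD1L1 in these windows. The members that held a TTTGAA on either strand had a median log2 difference of 0.14 between CDH26 and control clones (24 genes, 18 with a higher mean). Those without TTTGAA, which may hold another form of the element, had a median of 0.21 (12 genes, 11 with a higher mean).

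Over the 42 mitotic genes the CDH26 clones had a slightly higher mean in most. The mean of the CDH26 clones was above that of the control clones for 33 genes (78.6%) and below it for 9 (21.4%), against 47.9% and 49.5% of all 14812 genes. The median log2 difference was 0.13, against 0.00 over all genes. Leaving out control clone 1 gave 0.26, and leaving out control clone 2 gave 0.02. The range over the members was −0.17 to 0.50, so no member reached a 2-fold difference. The CDH26 clones all exceeded both controls in 9 members (21.4%), against 8.98% of all genes, and all lay under both in 0, against 9.93%. These 9 were BUB1, BUB1B, PTTG1, CDC20, CDCA8, KIF2C, KIF20A, KIF14 and PRC1.

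No member passed an adjusted p of 0.05 in limma, as was the case for all genes (0% called). At an unadjusted p of 0.05, 5 members were higher in CDH26 clones, against 3.51% of all genes, and 0 were lower, against 4% of all genes. The 5 were BUB1, CDCA8, KIF2C, BUB1B and PTTG1. P-values here measure the spread between clones of the same construct.

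**Figure D1:**
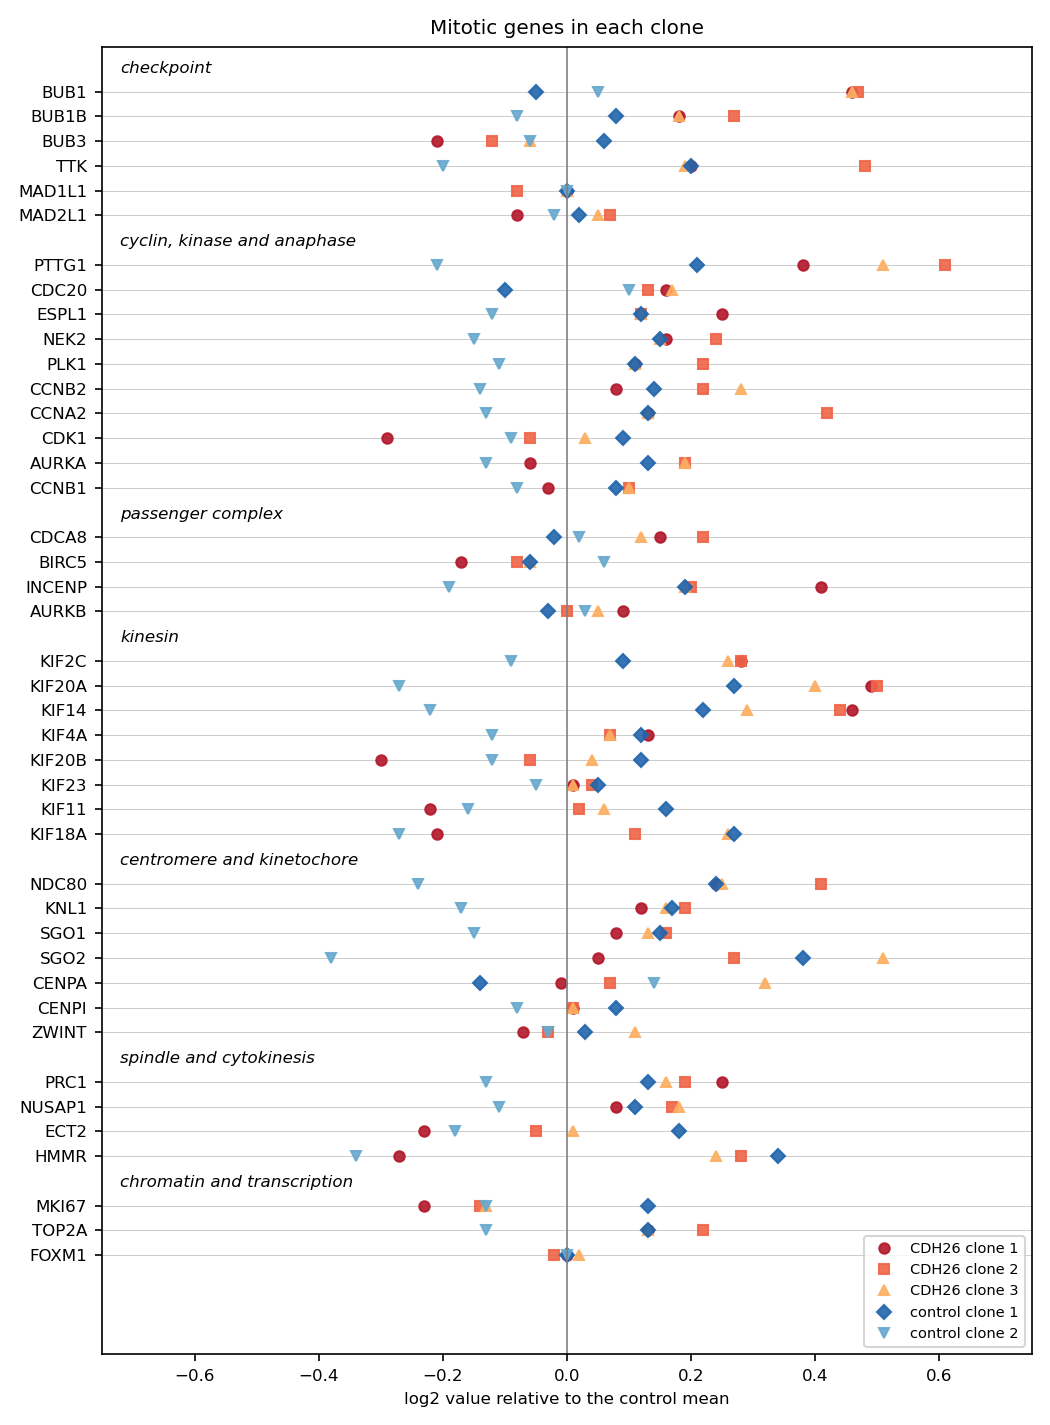
Log2 value of each of the 42 genes relative to the control mean (horizontal axis) in CDH26 clones 1 to 3 (warm colours) and control clones 1 and 2 (blue), genes grouped by role, 1 symbol per clone. Control clone 2, the light blue triangle pointing down, is the leftmost symbol for 26 genes.

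Of the 6 checkpoint genes BUB1 and BUB1B separated the groups, and the other 4 overlapped. BUB1, the kinase that assembles checkpoint proteins at the kinetochore, was at 0.46, 0.47 and 0.46 in CDH26 clones, against −0.05 and 0.05 in control clones. The CDH26 clones lay within 0.01 of one another (mean 0.46 ± 0.01 SD, n = 3) and far above both controls (0.00 ± 0.07 SD, n = 2). The log2 difference was 0.46 ± 0.04 (SE; 95% interval 0.36 to 0.56), a ratio of 1.38, with an unadjusted p of 0.000236 and an adjusted p of 0.508 in limma (adjusted p = 0.0406 to 0.77 with each clone left out in turn). Of all 14812 genes 5 had a smaller p.

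BUB1B encodes BUBR1, the pseudokinase that binds CDC20 in the checkpoint complex. It was at 0.18, 0.27 and 0.18 in CDH26 clones, against 0.08 and −0.08 in control clones, a difference of 0.21 ± 0.07 (SE; limma, adjusted p = 0.626). TTK, the kinase that starts checkpoint signalling, was at 0.20, 0.48 and 0.19 in CDH26 clones, against 0.20 and −0.20 in control clones. Only CDH26 clone 2 stood above control clone 1 in TTK by more than 0.01, and the groups overlapped.

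BUB3, which anchors BUB1 and BUBR1 at kinetochores, had a lower mean in CDH26 clones, with −0.21, −0.12 and −0.06 against 0.06 and −0.06 in control clones. CDH26 clone 3 and control clone 2 had about the same BUB3 value, so the groups overlapped. MAD1L1 and MAD2L1, the partners that turn MAD2 into the form that inhibits CDC20, differed by −0.03 ± 0.03 and 0.01 ± 0.06 (SE), with 95% intervals of −0.13 to 0.07 and −0.15 to 0.17.

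The 10 genes of cyclins, mitotic kinases and anaphase control had a median difference of 0.16, and 9 of them averaged higher in CDH26 clones. PTTG1, securin, the inhibitor of separase, was at 0.38, 0.61 and 0.51 in CDH26 clones, against 0.21 and −0.21 in control clones. All CDH26 clones were above both controls for PTTG1, but the controls themselves differed by more than the CDH26 clones did. The PTTG1 difference was 0.50 ± 0.16 (SE; 95% interval 0.06 to 0.94), the largest of the 42, with an adjusted p of 0.626 in limma. ESPL1, separase, was at 0.25, 0.12 and 0.12 in CDH26 clones, against 0.12 and −0.12 in control clones, and overlapped control clone 1.

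CDC20, the APC/C activator that the checkpoint blocks, was at 0.16, 0.13 and 0.17 in CDH26 clones, against −0.10 and 0.10 in control clones. For CDC20 control clone 1, not 2, was the lowest clone, and the difference was 0.16 ± 0.07 (SE; 95% interval −0.03 to 0.35; limma, adjusted p = 0.626). The kinases PLK1 and NEK2, which act in centrosome maturation and centrosome separation, shared another pattern. PLK1 was at 0.11, 0.22 and 0.11 in CDH26 clones, against 0.11 and −0.11 in control clones. NEK2 was at 0.16, 0.24 and 0.15 in CDH26 clones, against 0.15 and −0.15 in control clones. In both, 2 of the 3 CDH26 clones were level with control clone 1 to within 0.01, and control clone 2 alone was low.

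CCNA2, cyclin A, was at 0.13, 0.42 and 0.13 in CDH26 clones, against 0.13 and −0.13 in control clones, so that it shared this arrangement, and the B-type cyclins did not. CCNB2 was at 0.08, 0.22 and 0.28 in CDH26 clones, against 0.14 and −0.14 in control clones. CCNB1, the main B-type cyclin, differed by only 0.05 ± 0.07 (SE), with −0.03, 0.10 and 0.10 in CDH26 clones against 0.08 and −0.08 in control clones. AURKA, the spindle pole kinase, was likewise below 0 in CDH26 clone 1 alone of the CDH26 clones, at −0.06, 0.19 and 0.19, against 0.13 and −0.13 in control clones.

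CDK1, the catalytic partner of the mitotic cyclins, was the member of this group with a lower mean, at −0.29, −0.06 and 0.03 in CDH26 clones, against 0.09 and −0.09 in control clones. Its difference was −0.11 ± 0.12 (SE; 95% interval −0.46 to 0.24). CDH26 clone 1 was the lowest clone for CDK1, and the other CDH26 clones lay between the controls.

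The chromosomal passenger complex, which corrects faulty attachments, consists of the kinase AURKB with INCENP, survivin (BIRC5) and borealin (CDCA8), and its 4 genes did not share a direction. CDCA8 was at 0.15, 0.22 and 0.12 in CDH26 clones, against −0.02 and 0.02 in control clones. All CDH26 clones were above both controls in a gene whose controls were close together, and the difference was 0.16 ± 0.04 (SE; 95% interval 0.06 to 0.27; unadjusted p = 0.0118, adjusted p = 0.626, limma). INCENP was at 0.41, 0.20 and 0.19 in CDH26 clones, against 0.19 and −0.19 in control clones. CDH26 clone 1 stood above a run of like values, and control clone 2 stood below it. BIRC5 was at −0.17, −0.08 and −0.06 in CDH26 clones, against −0.06 and 0.06 in control clones. Here control clone 2 was the highest clone, the only member of the 42 in which it was. AURKB differed by 0.05 ± 0.04 (SE) and its groups overlapped.

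Of the 8 kinesins, KIF2C, KIF20A and KIF14 separated the groups. KIF2C, the microtubule-depolymerising kinesin of the centromere, was at 0.28, 0.28 and 0.26 in CDH26 clones, against 0.09 and −0.09 in control clones. As in BUB1 the CDH26 clones were close together, and the difference was 0.27 ± 0.06 (SE; 95% interval 0.09 to 0.45; unadjusted p = 0.0144, adjusted p = 0.626, limma). KIF20A, which carries the passenger complex to the central spindle, was at 0.49, 0.50 and 0.40 in CDH26 clones, against 0.27 and −0.27 in control clones. KIF14, a kinesin of cytokinesis, was at 0.46, 0.44 and 0.29 in CDH26 clones, against 0.22 and −0.22 in control clones. For KIF20A and KIF14 the gap between the 2 controls was wider than the gap between CDH26 clones and control clone 1, and the 95% intervals of the differences, −0.05 to 0.98 and −0.05 to 0.84, both took in 0.

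The other 5 kinesins did not separate the groups. KIF4A, a chromokinesin that limits the length of the central spindle, and KIF23, the motor of centralspindlin, differed by 0.09 ± 0.08 and 0.02 ± 0.04 (SE). KIF11, the motor that pushes spindle poles apart, was at −0.22, 0.02 and 0.06 in CDH26 clones, against 0.16 and −0.16 in control clones. KIF20B was at −0.30, −0.06 and 0.04 in CDH26 clones, against 0.12 and −0.12 in control clones. KIF18A, which dampens chromosome movements at the metaphase plate, was at −0.21, 0.11 and 0.26 in CDH26 clones, against 0.27 and −0.27 in control clones. In these 3 genes CDH26 clone 1 was the lowest of its group and CDH26 clones 2 and 3 lay between the controls.

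**Figure D2:**
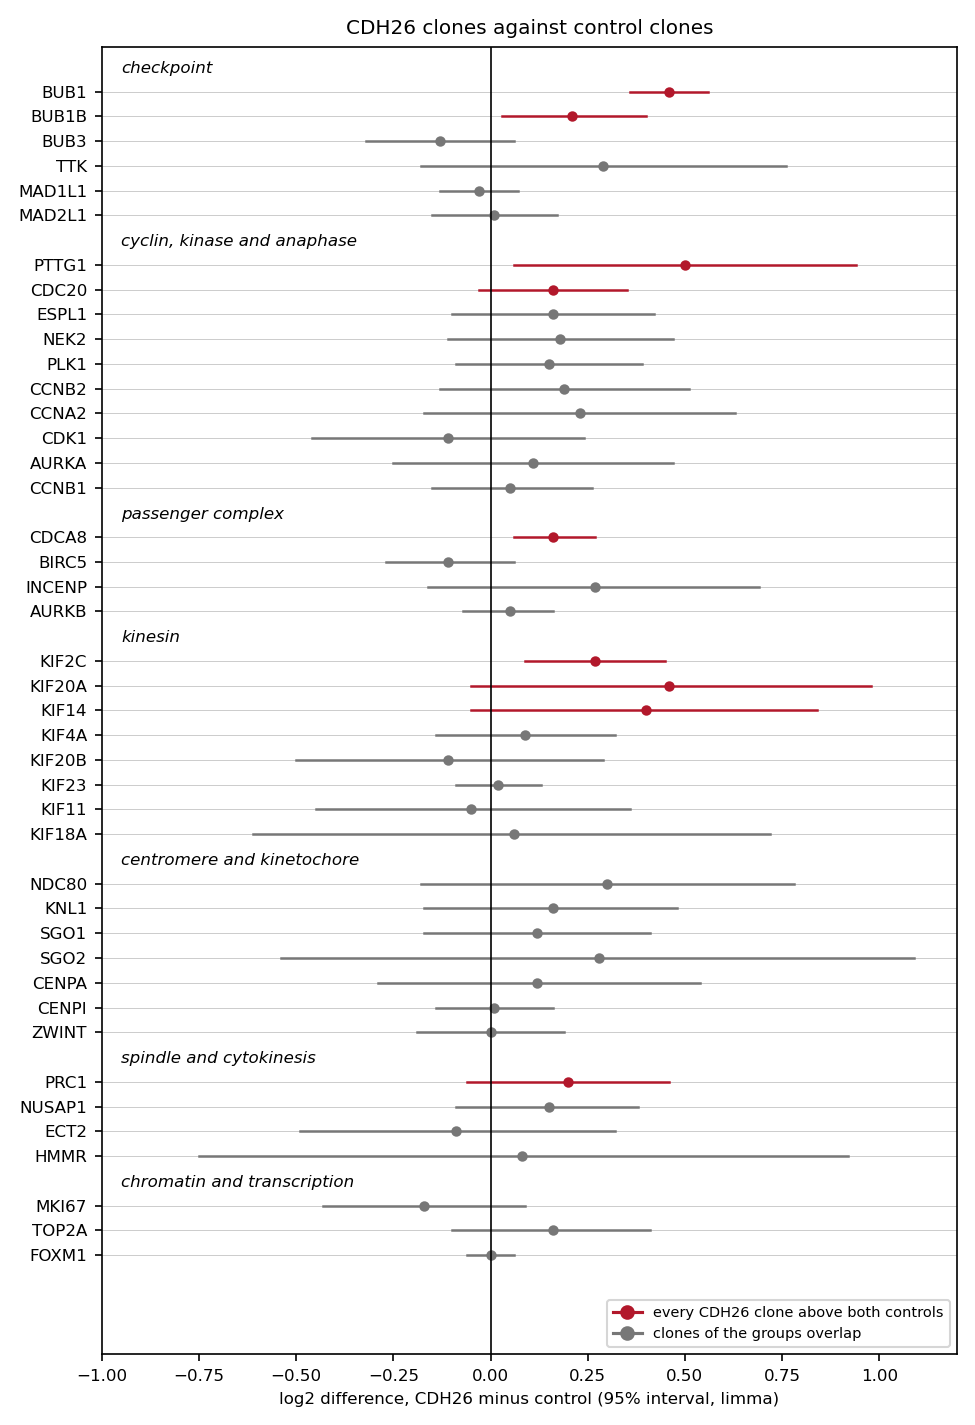
Log2 difference of CDH26 minus control clones for the 42 genes (points) with its 95% interval from limma (lines), genes grouped by role. Intervals of BUB1, BUB1B, PTTG1, CDCA8 and KIF2C lie wholly above 0, and red marks the 9 genes whose CDH26 clones all exceeded both controls.

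All 7 measured centromere and kinetochore genes had a mean at or above that of the controls, yet none separated the groups. NDC80, the microtubule-binding subunit of the outer kinetochore, was at 0.24, 0.41 and 0.25 in CDH26 clones, against 0.24 and −0.24 in control clones. KNL1, the scaffold on which BUB1 and BUB3 dock, was at 0.12, 0.19 and 0.16 in CDH26 clones, against 0.17 and −0.17 in control clones. In both genes control clone 1 was among the CDH26 clones or level with the lowest of them, and control clone 2 lay well below every other clone.

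SGO1 and SGO2, the shugoshins that protect centromeric cohesin, were low in control clone 2 as well. SGO1 was at 0.08, 0.16 and 0.13 in CDH26 clones, against 0.15 and −0.15 in control clones. SGO2 was at 0.05, 0.27 and 0.51 in CDH26 clones, against 0.38 and −0.38 in control clones, the widest gap between controls of the 42 genes. For CENPA, the centromeric histone variant, control clone 1 was the low one: CENPA was at −0.01, 0.07 and 0.32 in CDH26 clones, against −0.14 and 0.14 in control clones. CENPI differed by 0.01 ± 0.05 and ZWINT by 0.00 ± 0.07 (SE).

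In the spindle and cytokinesis group, PRC1, the microtubule bundler of the central spindle, was the member that separated the groups. It was at 0.25, 0.19 and 0.16 in CDH26 clones, against 0.13 and −0.13 in control clones, a difference of 0.20 ± 0.09 (SE; limma, adjusted p = 0.626). NUSAP1, a spindle-associated protein, was at 0.08, 0.17 and 0.18 in CDH26 clones, against 0.11 and −0.11 in control clones. ECT2, the exchange factor that activates RhoA for the cleavage furrow, was at −0.23, −0.05 and 0.01 in CDH26 clones, against 0.18 and −0.18 in control clones. HMMR, a spindle pole protein, was at −0.27, 0.28 and 0.24 in CDH26 clones, against 0.34 and −0.34 in control clones, so that CDH26 clone 1 lay near control clone 2 and the other CDH26 clones near control clone 1.

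The chromatin and transcription group did not share a direction. MKI67, the Ki-67 protein used as a proliferation marker, had the most negative difference of the 42, −0.17 ± 0.09 (SE; 95% interval −0.43 to 0.09). Its values were −0.23, −0.14 and −0.13 in CDH26 clones, against 0.13 and −0.13 in control clones, with CDH26 clones level with or below control clone 2. TOP2A, topoisomerase II alpha, which untangles sister chromatids, was at 0.13, 0.22 and 0.13 in CDH26 clones, against 0.13 and −0.13 in control clones. FOXM1, a transcription factor of G2 and M phase genes, was at 0.00, −0.02 and 0.02 in CDH26 clones, against 0.00 in each control clone. Its 95% interval, −0.06 to 0.06, was among the narrowest of the 42.

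A low value in control clone 2 recurred across the list. Control clone 2 was the lowest of the 5 clones in 26 of the 42 genes (61.9%), against 22.5% of all genes, and it was the highest in 1 (2.38%), against 22.6% of all genes. It lay below control clone 1 in 35 genes (83.3%), against 42.8% of all genes. The median gap between the 2 control clones, without regard to sign, was 0.25 for the mitotic genes, against 0.09 for all genes. The range among the 3 CDH26 clones had a median of 0.12 in both sets. The medians of the 42 genes were 0.08, 0.17 and 0.13 in CDH26 clones, against 0.12 and −0.12 in control clones, so that control clone 1 lay among the CDH26 clones and control clone 2 apart from all of them.

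Each control clone was therefore also set against the CDH26 clones alone. Against control clone 2 the CDH26 mean was higher in 35 members (83.3%), against 47.7% of all genes, with a median of 0.26. Against control clone 1 it was higher in 22 (52.4%), close to the 47.5% of all genes, with a median of 0.02. Every CDH26 clone lay above control clone 2 in 29 members and below it in 1, against 25.9% and 27% of all genes. Every CDH26 clone lay above control clone 1 in 11 members and below it in 11, against 23.8% and 25.7% of all genes. The 11 above were the 9 named above with AURKB and CENPA. The 11 below were BUB3, MAD1L1, CDK1, KIF11, KIF20B, KIF23, KIF18A, CENPI, ECT2, HMMR and MKI67; for MAD1L1 the margin in CDH26 clones 1 and 3 was under 0.01.

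**Figure D3:**
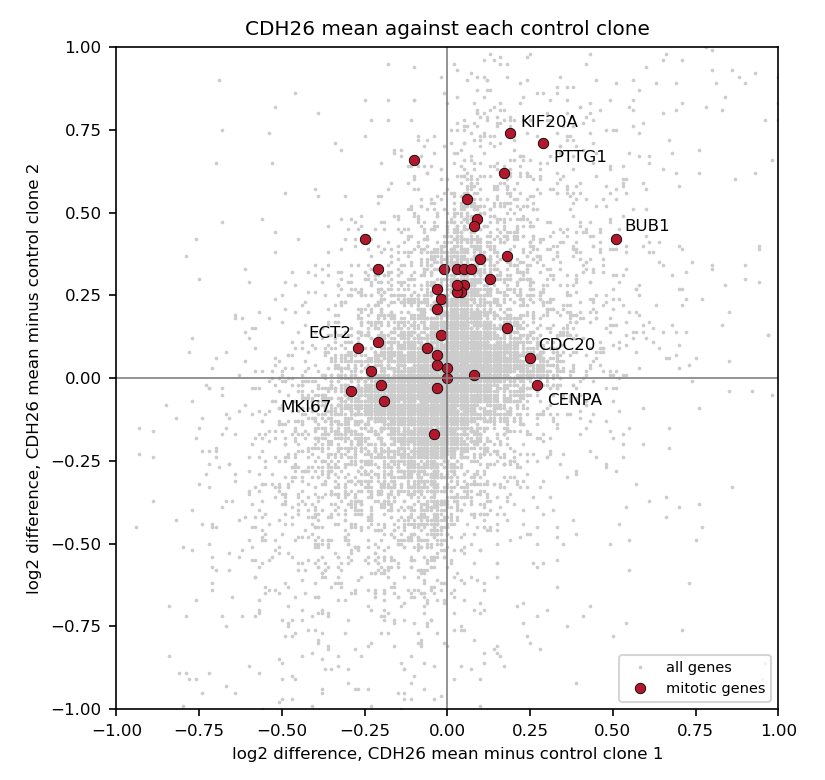
Log2 difference of the CDH26 mean from control clone 1 (horizontal axis) and from control clone 2 (vertical axis) for the 42 mitotic genes (red) and all genes (grey; 292 genes beyond 1 log2 unit on an axis are not drawn). Red points spread to both sides of 0 horizontally and lie mostly above 0 vertically; BUB1 is the point far to the right.

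The tests also depended on which control clone was kept. Without control clone 1, limma called 19 members higher at an unadjusted p of 0.05, against 10.5% of all genes, and 0 lower, against 9.95%. BUB1 and KIF2C then passed the adjusted threshold, with adjusted p of 0.0406 and 0.0417, against 1.26% of all genes called. Without control clone 2, 4 members were higher at an unadjusted p of 0.05 (BUB1, CDC20, CDCA8 and KIF2C), against 6.25% of all genes, and 2 were lower (CENPI and MKI67), against 6.58%. No member passed the adjusted threshold then. Both fits take the spread of the remaining control clone to be that of the CDH26 group. BUB1 and KIF2C kept their direction in both fits. BUB1 lay 0.42 above control clone 2 and 0.51 above control clone 1, and KIF2C lay 0.37 above control clone 2 and 0.18 above control clone 1. CENPI, at 0.01 in every CDH26 clone, was called higher without control clone 1 and lower without control clone 2. Its differences were 0.09 from control clone 2 and −0.06 from control clone 1.

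CDH26 clone by clone, the differences from control clone 2 had medians of 0.17, 0.30 and 0.24, and those from control clone 1 had medians of 0.00, 0.02 and 0.00. CDH26 clone 3 was above control clone 2 in 38 of the 42 genes and CDH26 clone 2 in 35, against 41.4% and 39.4% of all genes. CDH26 clone 1 was above it in 30, against 44.8% of all genes.

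CDH26 clone 1 differed from its own group in some members. It was at least 0.1 below both other CDH26 clones in 12 members (28.6%), against 14.2% of all genes. These were MAD2L1, CCNB1, CCNB2, CDK1, AURKA, PTTG1, KIF11, KIF20B, KIF18A, SGO2, ECT2 and HMMR, singled out after their values were seen.

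Other genes of mitosis, listed apart from these members, showed a similar arrangement. Of 79 such genes 57 were measured, and 45 (78.9%) had a higher mean in CDH26 clones, with a median difference of 0.13. The CDH26 clones all exceeded both controls in 17 (29.8%), against 8.98% of all genes, and lay under both in 1, TRIP13 (1.75%), against 9.93%. At an unadjusted p of 0.05, 8 were higher, against 3.51% of all genes, and 0 lower, against 4%, and none passed the adjusted threshold. Control clone 2 was the lowest clone in 41 of the 57 (71.9%), against 22.5% of all genes. Their medians were 0.09, 0.13 and 0.11 in CDH26 clones, against 0.11 and −0.11 in control clones. The median difference of the 57 was 0.04 against control clone 1 and 0.19 against control clone 2. Among the 17 that exceeded both controls, ARHGAP11A did so by a margin under 0.01, with CDH26 clones 1 and 3 and control clone 1 all near 0.15.

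CLASP1, which stabilises microtubule plus ends at kinetochores, had the smallest p of that list. It was at 0.21, 0.23 and 0.16 in CDH26 clones, against −0.02 and 0.02 in control clones, a difference of 0.20 ± 0.03 (SE; unadjusted p = 0.00402, adjusted p = 0.626, limma). PSRC1, a spindle protein, differed by 0.36 ± 0.09 (SE) and TROAP by 0.14 ± 0.04.

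Subunits of the APC/C itself did not follow the mitotic genes. All 15 listed subunits and activators were measured, and 11 (73.3%) had a lower mean in CDH26 clones, against 49.5% of all genes, with a median of −0.06. This median too depended on the control clone: it was −0.17 against control clone 1 and −0.03 against control clone 2, and control clone 1 was the highest of the 5 clones in 10 of the 15 (66.7%), against 20.2% of all genes. The CDH26 clones all lay under both controls in 3 (ANAPC15, CDC16 and ANAPC7; 20%), against 9.93% of all genes, and exceeded both in 0, against 8.98%. At an unadjusted p of 0.05, ANAPC15 and CDC16 were lower, against 4% of all genes. ANAPC15, which frees CDC20 from the checkpoint complex, was at −0.46, −0.32 and −0.17 in CDH26 clones, against 0.03 and −0.03 in control clones. CDC16 was at −0.47, −0.48 and −0.19 in CDH26 clones, against 0.08 and −0.08 in control clones. ANAPC7 differed by −0.23 ± 0.08 (SE; 95% interval −0.47 to 0.01). Cohesin and its regulators had 9 of 11 genes measured, 6 of them with a lower mean (66.7%), against 49.5% of all genes. Their median was −0.12 against control clone 1 and 0.00 against control clone 2. Control clone 1 was the highest clone in 5 of the 9 (55.6%), against 20.2% of all genes. STAG1 (−0.59 ± 0.18 SE) and WAPL (−0.38 ± 0.11), named after their values were seen, were lower at an unadjusted p of 0.05 (4% of all genes), with an adjusted p of 0.626 each in limma.

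Regulators of the mitotic genes were also read. MYBL2, which joins the MuvB core to activate G2 and M phase genes, was at −0.26, −0.23 and −0.12 in CDH26 clones, against −0.02 and 0.02 in control clones, a difference of −0.20 ± 0.05 (SE). TFDP1, the dimer partner of E2F factors, was at −0.38, −0.40 and −0.21 in CDH26 clones, against 0.00 in each control clone, a difference of −0.33 ± 0.07. RB1, the retinoblastoma protein, differed by 0.31 ± 0.18, and control clone 2 was its lowest clone. For the DREAM and MuvB complexes, E2F partners and NF-Y, 16 genes were listed and 11 measured. NFYA, NFYB, NFYC, E2F4 and E2F5 had no named probe set, so no NF-Y subunit was read. Of the 11 measured, 0 were higher at an unadjusted p of 0.05, against 3.51% of all genes. Lower at that threshold were 2, TFDP1 and MYBL2, against 4% of all genes. Their adjusted p was 0.626 each in limma.

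Genes of G1/S control and DNA replication had 29 of 41 measured, with a median difference of −0.06. At an unadjusted p of 0.05, MCM6 was higher, against 3.51% of all genes, and CCNE2, CDK4, CDC6 and MCM10 were lower, against 4%. The CDH26 clones all exceeded both controls in 5 (17.2%), against 8.98% of all genes, and lay under both in 8 (27.6%), against 9.93%. Control clone 2 was the lowest clone in 8 of the 29 (27.6%), against 22.5% of all genes. Control clone 1 was the highest clone in 13 of the 29 (44.8%), against 20.2% of all genes. The median difference was −0.10 against control clone 1 and −0.04 against control clone 2. CDC6, which loads the MCM helicase, was at −0.23, −0.20 and −0.18 in CDH26 clones, against −0.06 and 0.06 in control clones. MCM6, a helicase subunit, was at 0.20, 0.36 and 0.39 in CDH26 clones, against −0.01 and 0.01 in control clones, and CDK4 differed by −0.19 ± 0.05 (SE). Of the 7 CDK inhibitors listed only CDKN2A was measured, and it differed by 0.00 ± 0.02.

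**Figure D4:**
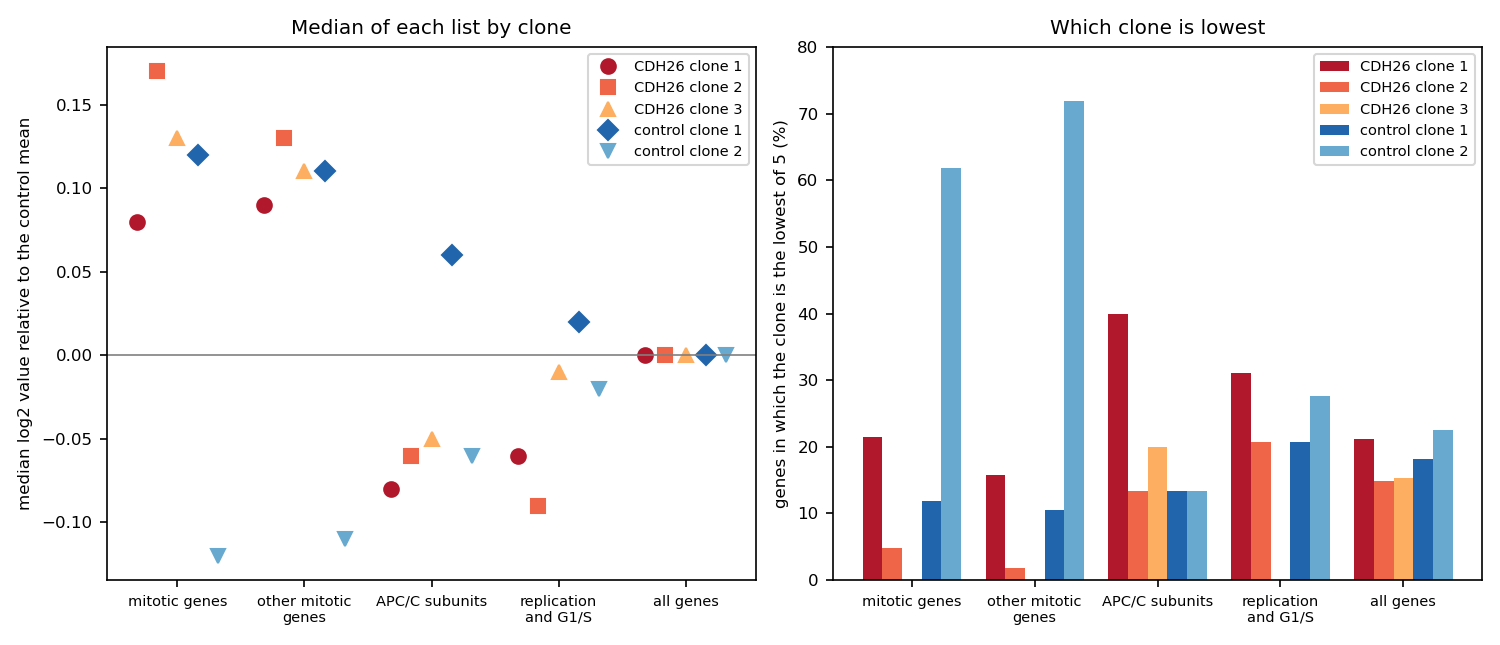
Left, median log2 value relative to the control mean for each gene list by clone. Right, percent of the genes of each list in which a clone was the lowest of the 5; CDH26 clones are in warm colours and control clones in blue. Control clone 2 is lowest in 61.9% of the mitotic genes and 71.9% of the other mitotic genes, against 22.5% of all genes.

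Values of epithelial markers also differed between the groups. Of 10 listed, 8 were measured, with CDH26 clones all above both controls in 5 (KRT5, KRT14, KRT19, DSP and SFN; 62.5%), against 8.98% of all genes. The other 3 had lower means in CDH26 clones and overlapped the controls, with differences of −0.22 ± 0.14 for KRT8, −0.29 ± 0.20 for KRT18 and −0.22 ± 0.13 for EPCAM (SE). KRT14 had the largest difference of the 8, with 3.04, 3.11 and 2.02 in CDH26 clones, against 0.24 and −0.24 in control clones. The KRT14 difference was 2.72 ± 0.43 (SE), a ratio of 6.6, with an unadjusted p of 0.00348 and an adjusted p of 0.626 in limma. The medians of the 8 were 0.37, 0.37 and 0.31 in CDH26 clones, against 0.14 and −0.14 in control clones. The median difference of the 8 depended on the control clone, at 0.15 against control clone 1 and 0.51 against control clone 2. Control clone 2 was the lowest clone in 5 of the 8 (62.5%), against 22.5% of all genes. For KRT5 the margin was small, with CDH26 clone 3 at 0.50 and control clone 1 at 0.49. Of 10 fibroblast markers 4 were measured, with medians of 0.10, 0.02 and 0.00 in CDH26 clones, against −0.05 and 0.05 in control clones. Among them LUM, lumican, was at 2.01, 1.91 and 0.86 in CDH26 clones, against −0.09 and 0.09 in control clones, a difference of 1.59 ± 0.42 (SE; ratio 3.01; unadjusted p = 0.0204, adjusted p = 0.626, limma). DCN, THY1 and VIM differed by 0.02 ± 0.03, −0.16 ± 0.10 and 0.06 ± 0.06 (SE), and their groups overlapped. The part of these markers in the differences of the mitotic genes was not tested.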

How the data were processed

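RNA from 5 TE7 clones, 3 with the CDH26 construct and 2 with the control construct, was measured on 1 Affymetrix array each, and clones were grouped by the labels. Per the submitters' processing notes Affymetrix Expression Console was used; its version, the summarisation and the background correction are not stated in what was used here. The authors' deposited values are logarithms, taken as log2 since the base is not stated, and run from −3.02 to 7.35. In every row the 2 control columns sum to 0 within 1e-06, so centring on the average of the controls was done by the authors.

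The array's annotation named 15835 of 44607 probe sets, 14812 genes, and all names matched RefSeq symbols of GRCh38.p14. Probe sets of a gene were averaged (651 genes had more than 1). Since no level is kept, no filter on dim genes and no trend in the variance could be used. limma 3.58.1 in R 4.3.3 (lmFit, eBayes, group only, two-sided, prior degrees of freedom 0.885) was fitted to all genes with Benjamini-Hochberg adjustment. The same fit was also run on simulated normal values, drawn independently for each array. These do not copy the ties of the deposited values, and their outcome is not given here. Values within 1e-05 counted as tied, and a clone counts as above or below another only beyond that.

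The mitotic genes, the other lists and the rules were chosen with earlier results of these data known. Values in every clone are given for members with an unadjusted p under 0.05 or no overlap between groups, for the 2 of smallest p in each role, and for further members chosen after their values were seen; of the longer other lists the 3 of smallest p are named. Clone numbers name separate single-cell clones and do not pair the groups. Alternatives were array medians subtracted, each clone left out, a replicate block, robust variance, array weights, another probe set rule, untied genes, natural logarithms and an adjusted threshold of 0.1. Figures were drawn with matplotlib 3.10.9.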

Additional observations from a re-analysis of the deposited data

How the results depend on the processing

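In 173 of 176 combinations of 15 members and the alternatives run for them, direction and side of the adjusted threshold were kept. Several of these settings could change little or nothing: array medians were 0, natural logarithms only rescale, and each member had 1 probe set. No gene passed the threshold in the main fit, so the side could change only by a gene coming to pass. The threshold of 0.1 and the fit on probe sets were run for the summaries over members and not gene by gene, and BUB1B, NDC80, MKI67 and TOP2A hold ties and had no value among untied genes. BUB1 (0.42) and KIF2C (0.37) passed the threshold without control clone 1, and KNL1 turned sign without control clone 2; leaving out each clone in turn, KNL1 ran from −0.01 to 0.33. The median difference of the mitotic genes, 0.13, ran from 0.02 to 0.26 with a clone left out and was 0.19 if the values are natural logarithms. Members higher at an unadjusted p of 0.05, 5 with all clones, numbered 2 to 19 with a clone left out and 2 with the replicate block; members lower numbered 0 to 2. Members past the adjusted threshold numbered 0 to 2. With a clone left out, the CDH26 clones all exceeded the controls in 10 to 29 members (9 with all) and lay under them in 0 to 11. Leaving out a clone can only keep or add members that separate the groups, so neither count could fall. Same-numbered clones did not pair: the difference of clone 1 and clone 2 in the CDH26 group correlated with that in the control group at r = −0.255 over 14812 genes, which are not independent. A brightness filter and a variance trend were not run, because the values hold no level.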
